A study of Mus musculus with 19 samples.

Results

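The p53 network was followed through 10 genes in mouse skin that carries early basal cell carcinoma (BCC). They are the p53 family genes Trp53, Trp63 and Trp73, the neighbouring cell cycle inhibitor genes Cdkn2a and Cdkn2b, and the p53 target genes Cdkn1a, Mdm2, Bbc3, Bax and Ccng1. They were chosen by name, with earlier results of these data known. All 10 are among the 18521 genes of the count table, and all 10 passed the filter on low counts that left 15760 genes. RNA came from the skin of 16 mice, all female and all Ptch1+/- K14-CreER2 p53fl/fl by strain. They lack 1 working copy of the Hedgehog receptor gene Ptch1 and carry floxed Trp53 alleles with a tamoxifen-dependent Cre recombinase under the keratin 14 promoter of basal keratinocytes. Healthy skin, which was not induced, came from 5 mice aged 128 to 137 days. The other mice had been induced with 3 injections of 300 µg tamoxifen and 4 Gy of x-rays, and were 228 to 326 days old. Of these, 4 mice had untreated skin with BCC (130 to 144 days after induction), 3 had skin treated once with an ablative fractional laser (AFL, 5% density, 40 mJ per microbeam, 80 to 126 days after induction) and 4 had skin given 8 applications of vismodegib, an inhibitor of the Hedgehog transducer Smoothened (109 to 137 days after induction). Harvest was labelled day 4. No vehicle or sham treatment is among the samples used here, and age cannot be told apart from induction.

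p53, the protein of Trp53, is a transcription factor that responds to DNA damage and oncogenic stress and switches on genes for cell cycle arrest and cell death. One of its targets, Mdm2, encodes the ubiquitin ligase that degrades p53. The Cdkn2a locus makes 2 unrelated proteins from different first exons: p16Ink4a, which inhibits the cyclin D kinases upstream of the retinoblastoma protein, and p19Arf, which inhibits Mdm2. Among the p53 relatives, p63 maintains the basal layer of the epidermis, and p73 is related in structure and can bind similar DNA elements. The count table has 1 row per gene, so the transcripts of p16Ink4a and p19Arf cannot be separated, nor can the full-length and truncated forms of Trp63 and Trp73.

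The promoters shown are those of Cdkn2a, the member with the largest difference between groups, of its neighbour Cdkn2b, and of the upstream Cdkn1a start, the only member window with a p53 element core. Each is the 250 bases before a RefSeq start (assembly GRCm38.p6, read 5′ to 3′ on the gene's strand), in lower case, with motif matches in capitals. The first Cdkn2a start, on the p16Ink4a side, lies 12427 bases from the second, on the p19Arf side, and the Cdkn2b start lies 16413 bases from the latter. The authors' counts were made on GRCm39 and carry no coordinates, so the windows are context for the genes and not a measurement.
Cdkn2a, chr4:89282193-89282442, minus strand: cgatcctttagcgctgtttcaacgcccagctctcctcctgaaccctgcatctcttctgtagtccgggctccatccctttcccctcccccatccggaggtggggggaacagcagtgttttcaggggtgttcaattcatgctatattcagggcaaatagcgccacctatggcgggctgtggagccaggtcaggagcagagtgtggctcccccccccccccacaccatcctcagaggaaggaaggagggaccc
Cdkn2a, chr4:89294620-89294869, minus strand: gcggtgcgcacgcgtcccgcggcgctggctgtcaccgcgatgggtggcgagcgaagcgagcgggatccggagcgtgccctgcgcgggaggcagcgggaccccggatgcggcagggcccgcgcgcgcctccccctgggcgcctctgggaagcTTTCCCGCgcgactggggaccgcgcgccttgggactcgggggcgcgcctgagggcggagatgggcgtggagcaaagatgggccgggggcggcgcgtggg
Cdkn2b, chr4:89311033-89311282, minus strand: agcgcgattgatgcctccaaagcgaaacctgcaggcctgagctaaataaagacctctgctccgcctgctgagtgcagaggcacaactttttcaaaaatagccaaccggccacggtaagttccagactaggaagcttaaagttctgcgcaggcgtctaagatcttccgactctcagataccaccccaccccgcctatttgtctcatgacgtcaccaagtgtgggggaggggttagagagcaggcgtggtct
Cdkn1a, chr17:29090729-29090978, plus strand: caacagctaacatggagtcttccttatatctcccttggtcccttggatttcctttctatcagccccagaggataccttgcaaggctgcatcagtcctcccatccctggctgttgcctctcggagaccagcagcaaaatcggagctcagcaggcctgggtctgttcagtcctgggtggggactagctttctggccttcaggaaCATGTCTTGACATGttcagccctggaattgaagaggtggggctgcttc
The capitals in the second Cdkn2a window are an E2F octamer, 99 bases before the start, and those in the Cdkn1a window are a p53 element core, 48 bases before it. The motifs, chosen after the sequences were seen, were CATG, any 6 bases and CATG for p53, and TTT, then CC, GG, CG or GC, then CGC for E2F, searched on both strands. The p53 core occurs in 161 of 32851 RefSeq windows of this length (0.49%) and the E2F octamers in 611 (1.86%). Of the members, 9 matched the promoter table, with 14 windows, and 1 of those windows held each motif.

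Libraries held 27185921 to 33556611 counts, and the paired libraries of mice 11 (AFL), 12 (vismodegib) and 16 (healthy) were summed. The libraries of a pair differed: Trp53 had 152 and 93.5 CPM in mouse 16 and 46 and 62.5 in mouse 12, and Cdkn2a had 2.63 and 1.22 CPM in mouse 12. Levels below are in CPM, counts relative to the library total, after TMM scaling, which corrects for library composition. The vismodegib library of mouse 9 stands apart, with a TMM factor of 0.591 against 0.906 to 1.18 in the other 15 mice. Rose, fell and changed refer to an adjusted p under 0.05 in edgeR's quasi-likelihood F test, with Benjamini-Hochberg adjustment over the 15760 genes. Labels do not say that the mice are littermates or were processed together, so p-values measure the spread between these mice. In bulk skin, fewer cells of a type and less RNA per cell cannot be told apart. Basal keratinocyte markers were present in every mouse, at a summed 8170 to 43600 CPM, so the label of skin was borne out by its markers.

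Trp53, the floxed gene, was lower in all 11 induced mice than in any healthy mouse. Healthy mice 10, 13, 14, 15 and 16 had 114, 143, 124, 94.0 and 123 CPM. BCC mice 3, 4, 5 and 8 had 31.5, 27.6, 23.6 and 36.3 CPM, AFL mice 2, 7 and 11 had 31.5, 44.9 and 40.5 CPM, and vismodegib mice 1, 6, 9 and 12 had 26.8, 53.2, 25.3 and 55.1 CPM. Trp53 fell against healthy skin in each induced group, with log2 fold changes of -2.01 in BCC (SE 0.26, edgeR adjusted p = 0.000423), -1.62 after AFL (SE 0.28, adjusted p = 0.00126) and -1.57 after vismodegib (SE 0.25, adjusted p = 0.00112). Over the mean of the induced groups the level was 3.32-fold lower (adjusted p = 6.59e-05). Among the induced groups it did not change, with log2 differences of 0.39 between AFL and BCC (95% interval -0.20 to 0.97) and 0.43 between vismodegib and BCC (-0.11 to 0.98).

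The keratin 14 promoter drives Cre in keratinocytes, so other cells of the skin keep Trp53. The labels do not say which exons are floxed, and reads of the exons that remain still count for the gene, so Trp53 is a partial check of the labels. Per count of its head-to-head neighbour Wrap53, Trp53 ran from 7.65 to 9.89 in healthy mice, 1.71 to 2.81 in BCC, 3.37 to 4.72 after AFL and 1.95 to 4.12 after vismodegib. This ratio, chosen after the values were seen, needs no scaling between libraries, and its healthy range did not overlap the others. Wrap53 itself was not called in any comparison. All AFL mice were nevertheless below all healthy mice in Wrap53 (means 9.63 and 13.8 CPM, log2 difference -0.52, edgeR adjusted p = 0.255). Of all genes, 25.7% had no overlap between these groups.

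**Figure D1:**
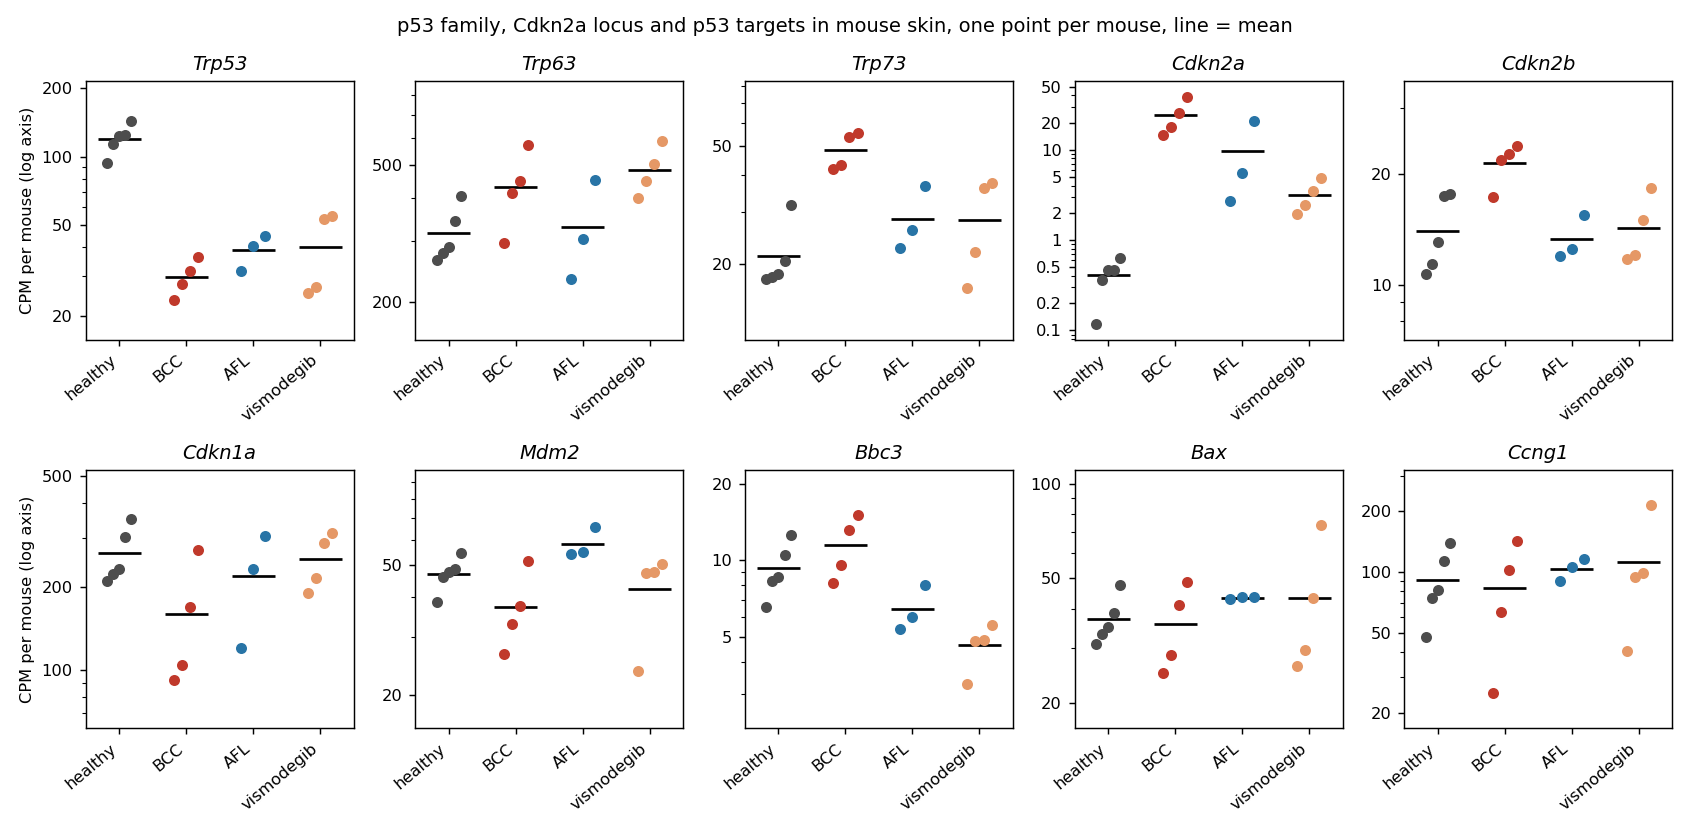
Level of each of the 10 genes in every mouse (CPM after TMM scaling, log axis), with 1 point per mouse and a bar at the group mean. Healthy Trp53 lies at 94.0 to 143 CPM and all induced mice at 23.6 to 55.1, while Cdkn2a is at 0.118 to 0.636 CPM in healthy skin and at 1.96 to 38.4 in the induced mice.

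Cdkn2a showed the largest difference of the 10 genes. Healthy mice 10, 13, 14, 15 and 16 had 0.118, 0.467, 0.359, 0.463 and 0.636 CPM, from 4, 16, 13, 16 and 44 counts. BCC mice 3, 4, 5 and 8 had 17.7, 38.4, 25.3 and 14.7 CPM. Every BCC mouse was thus far above every healthy mouse. Cdkn2a rose 57.4-fold in BCC (95% interval 23.2 to 142, log2 fold change 5.84, SE 0.62, edgeR adjusted p = 0.000136).

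Treated skin had intermediate Cdkn2a levels. AFL mice 2, 7 and 11 had 21.0, 2.68 and 5.57 CPM, and vismodegib mice 1, 6, 9 and 12 had 2.42, 3.47, 4.89 and 1.96 CPM. All 7 treated mice were above the healthy mice, all 4 vismodegib mice were below the BCC mice, and AFL mouse 2 lay within the BCC range while the other AFL mice lay below it. Against healthy skin Cdkn2a rose 23.3-fold after AFL (95% interval 9.60 to 56.5, log2 fold change 4.54, SE 0.60, adjusted p = 0.000116) and 7.58-fold after vismodegib (3.33 to 17.3, log2 fold change 2.92, SE 0.56, adjusted p = 0.0038). These comparisons share the healthy mice.

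Against untreated BCC, Cdkn2a fell by 2.92 on the log2 scale after vismodegib (SE 0.59, adjusted p = 0.004), and was 7.58-fold lower. After AFL the difference was -1.30 (SE 0.61, 95% interval -2.59 to -0.02) and did not pass the test (adjusted p = 0.235). The AFL value rests on mouse 2: without it the difference was -2.53 (adjusted p = 0.0187), and the change against healthy skin went from 4.54 to 3.31. Days since induction were 116, 80 and 126 for AFL mice 2, 7 and 11, below the BCC range of 130 to 144. With days as a covariate in the induced mice, the difference between AFL and BCC was -0.15 (adjusted p = 0.912), against -1.38 in the same mice without it, a fit added after the data were seen. Between AFL and vismodegib the log2 difference was 1.62 (SE 0.59, 95% interval 0.37 to 2.87, adjusted p = 0.0946). It was 0.44 without AFL mouse 2, and passed the test without AFL mouse 7 (2.06, adjusted p = 0.0382) and with days as a covariate (2.27, adjusted p = 0.0399; 1.56 in the induced mice alone without it).

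Cdkn2b, which encodes the kinase inhibitor p15Ink4b next to Cdkn2a, varied far less. Its values were 17.6, 13.1, 10.7, 17.4 and 11.4 CPM in healthy mice and 21.8, 23.7, 22.6 and 17.3 CPM in BCC mice. They were 12.0, 15.5 and 12.5 CPM in AFL mice and 11.8, 15.0, 18.3 and 12.1 CPM in vismodegib mice. BCC was highest, but BCC mouse 8 overlapped the healthy range. Cdkn2b did not pass the test in any comparison, with a log2 difference of 0.60 between BCC and healthy skin (SE 0.21, adjusted p = 0.173), -0.68 between AFL and BCC (SE 0.25, adjusted p = 0.113) and -0.58 between vismodegib and BCC (SE 0.22, adjusted p = 0.0865). The differences of AFL and vismodegib from BCC passed in 2 of 18 and 3 of 19 alternatives. DESeq2 was among them (-0.713, adjusted p = 0.0426, and -0.598, adjusted p = 0.0479).

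Cdkn2a counts per 100 Cdkn2b counts give a ratio within each library, chosen after the values were seen and free of scaling. It was 0.672, 3.56, 3.37, 2.67 and 5.58 in healthy mice and 81.2, 162, 112 and 84.7 in BCC mice. AFL mice 2, 7 and 11 had 175, 17.3 and 44.7, and vismodegib mice 1, 6, 9 and 12 had 20.5, 23.2, 26.7 and 16.2. The vismodegib range lay between the healthy and BCC ranges and overlapped neither. Mtap, a methionine salvage gene on the other side of Cdkn2a, stood at a mean of 37.8 ± 9.62 CPM in the 5 healthy mice (SD), 31.2 ± 4.45 in the 4 BCC mice, 34.3 ± 8.54 in the 3 AFL mice and 37.7 ± 6.39 in the 4 vismodegib mice, and was not called in any comparison.

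**Figure D2:**
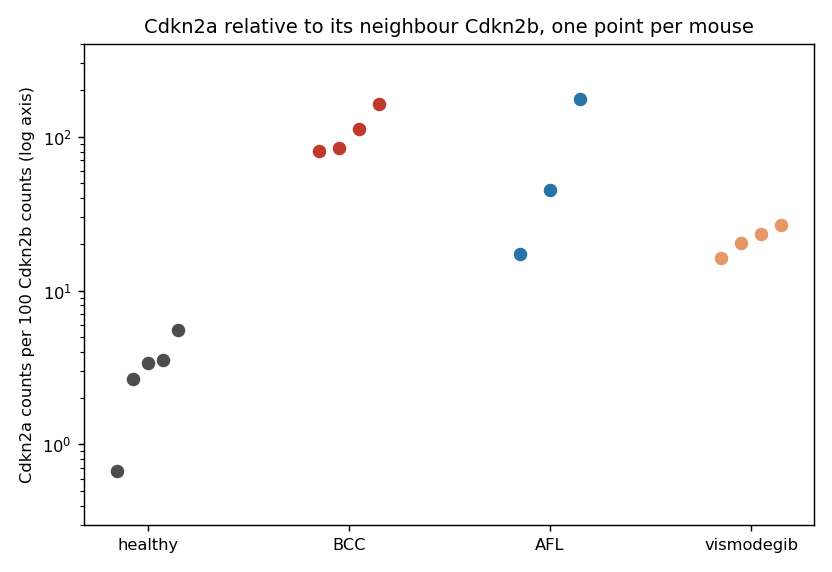
Cdkn2a counts per 100 Cdkn2b counts (log axis), with 1 point per mouse and the groups on the x axis; within a group the points are only sorted by value. Cdkn2a per 100 Cdkn2b is 0.672 to 5.58 in healthy mice, 81.2 to 162 in BCC mice and 16.2 to 26.7 after vismodegib, while AFL mouse 2 is at 175.

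Trp73 rose in BCC. It had 17.8, 18.2, 18.5, 20.5 and 31.6 CPM in healthy mice and 55.4, 42.1, 43.4 and 53.6 CPM in BCC mice, with no overlap. The change was 2.28-fold (95% interval 1.56 to 3.32, log2 fold change 1.19, SE 0.26, edgeR adjusted p = 0.0163). It lost the call without healthy mouse 13 (1.13, adjusted p = 0.0566) or healthy mouse 14 (1.14, adjusted p = 0.0549). AFL mice 2, 7 and 11 had 36.7, 26.1 and 22.8 CPM and vismodegib mice 1, 6, 9 and 12 had 36.2, 22.0, 16.7 and 37.6 CPM. All 7 were below the BCC mice; 3 of them lay above the healthy range, 3 within it and 1 below it. Neither treated group passed the test against healthy skin (0.42, adjusted p = 0.364, and 0.40, adjusted p = 0.292). Against BCC the differences were -0.77 after AFL (SE 0.30, adjusted p = 0.144) and -0.79 after vismodegib (SE 0.27, adjusted p = 0.0579). The difference after vismodegib passed the test in 8 of 19 alternatives, among them DESeq2 (-0.82, adjusted p = 0.0211), RLE scaling (-0.82, adjusted p = 0.0438) and leaving out vismodegib mouse 12 (-0.96, adjusted p = 0.0421).

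Trp63, the p63 gene, overlapped between all groups. Its values were 405, 289, 343, 277 and 265 CPM in healthy mice, 296, 448, 572 and 415 CPM in BCC mice, 452, 232 and 305 CPM after AFL and 448, 502, 586 and 400 CPM after vismodegib. No comparison passed the test. The nearest was vismodegib against healthy skin, with a log2 difference of 0.62 (SE 0.24, 95% interval 0.11 to 1.12, adjusted p = 0.0949).

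Cdkn1a, which encodes the kinase inhibitor p21, was not called in any comparison. Its values were 352, 302, 223, 232 and 210 CPM in healthy mice, 272, 92.7, 105 and 169 CPM in BCC mice, 120, 304 and 232 CPM after AFL and 313, 288, 190 and 216 CPM after vismodegib. BCC mice 4, 5 and 8 lay below every healthy mouse, and BCC mouse 3 did not. The log2 difference of BCC from healthy skin was -0.72 (95% interval -1.42 to -0.02, adjusted p = 0.332). That of vismodegib from BCC was 0.66 (-0.07 to 1.39, adjusted p = 0.199), and was 1.04 without BCC mouse 3 (adjusted p = 0.0377).

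Mdm2 had 54.5, 38.5, 48.8, 47.8 and 45.9 CPM in healthy mice and 33.1, 26.6, 51.4 and 37.5 CPM in BCC mice. AFL mice had 54.8, 54.0 and 65.6 CPM and vismodegib mice had 50.3, 47.6, 23.6 and 47.4 CPM. The AFL mice were above all BCC and all vismodegib mice. Their log2 difference from BCC was 0.65 (SE 0.26, 95% interval 0.10 to 1.19, adjusted p = 0.159) and from vismodegib 0.46 (adjusted p = 0.27), and neither was called. BCC stood at -0.34 against healthy skin (95% interval -0.83 to 0.15, adjusted p = 0.549).

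Bbc3, which encodes the pro-apoptotic protein PUMA, fell after vismodegib. Vismodegib mice had 4.88, 4.81, 3.29 and 5.60 CPM, below all healthy mice (8.63, 8.28, 6.54, 12.6 and 10.5 CPM) and all BCC mice (13.1, 9.58, 8.18 and 15.1 CPM). AFL mice had 5.99, 8.02 and 5.37 CPM. Bbc3 was 2.47-fold lower after vismodegib than in BCC (log2 difference -1.31, SE 0.28, edgeR adjusted p = 0.00588). Against healthy skin the log2 difference was -0.999 (SE 0.27, adjusted p = 0.0256), a call that was lost without healthy mouse 15 (-0.87, adjusted p = 0.0685), healthy mouse 16 (-0.95, adjusted p = 0.061) or vismodegib mouse 9 (-0.87, adjusted p = 0.075). AFL stood at -0.83 against BCC, without overlap between the mice (SE 0.30, adjusted p = 0.113). This difference passed in 2 of 18 alternatives, DESeq2 (-0.865, adjusted p = 0.0265) and all 19 libraries as replicates (-0.903, adjusted p = 0.0276).

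Bax, the pro-apoptotic pore-forming protein gene, and Ccng1, which encodes cyclin G1, were not called in any comparison. Bax had 33.2, 47.4, 38.7, 30.8 and 34.9 CPM in healthy mice, 48.7, 41.1, 24.9 and 28.4 CPM in BCC mice, 43.5, 43.0 and 43.5 CPM after AFL and 26.3, 43.2, 73.8 and 29.6 CPM after vismodegib. Ccng1 had 74.4, 47.6, 81.3, 113 and 139 CPM in healthy mice, 25.0, 102, 143 and 63.4 CPM in BCC mice, 90.2, 116 and 106 CPM after AFL and 99.0, 40.7, 215 and 94.3 CPM after vismodegib. The groups overlapped in both genes, and the highest value of each was that of vismodegib mouse 9, the library that stands apart. BCC differed from healthy skin by -0.05 for Bax (95% interval -0.64 to 0.54) and -0.13 for Ccng1 (-1.12 to 0.86). With the level of growing hair markers as a covariate, the difference in Ccng1 was -1.17 (adjusted p = 0.0736). Between vismodegib and BCC, both differences changed sign without mouse 9, from 0.27 to -0.10 for Bax and from 0.43 to -0.06 for Ccng1, and none of these was called.

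The 10 genes were chosen with earlier results known, so the shares of all genes below are a background and not a test. Counted over the 10 genes, 2 rose and 1 fell in BCC against healthy skin, where 2.82% of all genes tested changed (2.66% higher, 0.159% lower). After AFL 1 rose and 1 fell against healthy skin, beside 9.24% of all genes (7.95% higher, 1.29% lower). After vismodegib 1 rose and 2 fell against healthy skin, beside 11.6% (7.57% higher, 4.07% lower). Between AFL and BCC none of the 10 passed the edgeR test, beside 7.75% of all genes (6.10% higher, 1.65% lower), while 5 of the 10 had an unadjusted p under 0.05, beside 20.6% of all genes, and DESeq2 called 2, beside 11.8%. Vismodegib against BCC gave 0 rises and 2 falls, beside 17.0% (8.03% higher, 9.00% lower). Between AFL and vismodegib none passed in edgeR, beside 9.15% (6.69% higher, 2.46% lower), with 1 at an unadjusted p under 0.05, beside 25.9% of all genes, and 0 called by DESeq2, beside 15.1%. In the mean of the induced groups against healthy skin 1 rose and 1 fell, beside 5.97% (4.37% higher, 1.60% lower). The median log2 difference of the 10 genes in BCC against healthy skin was 0.13, beside -0.00 over all genes.

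The mice did not overlap for 3 of the 10 genes between BCC and healthy skin, beside 6.65% of all genes tested. The counts were 2 genes for AFL against healthy skin (25.7% of all genes), 3 for vismodegib against healthy skin (16.1%), 4 for AFL against BCC (18.8%), 3 for vismodegib against BCC (16.4%) and 1 for AFL against vismodegib (22.2%). Trp53 and Cdkn2a made up the 2 genes without overlap between all induced and all healthy mice (1.00% of all genes).

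**Figure D3:**
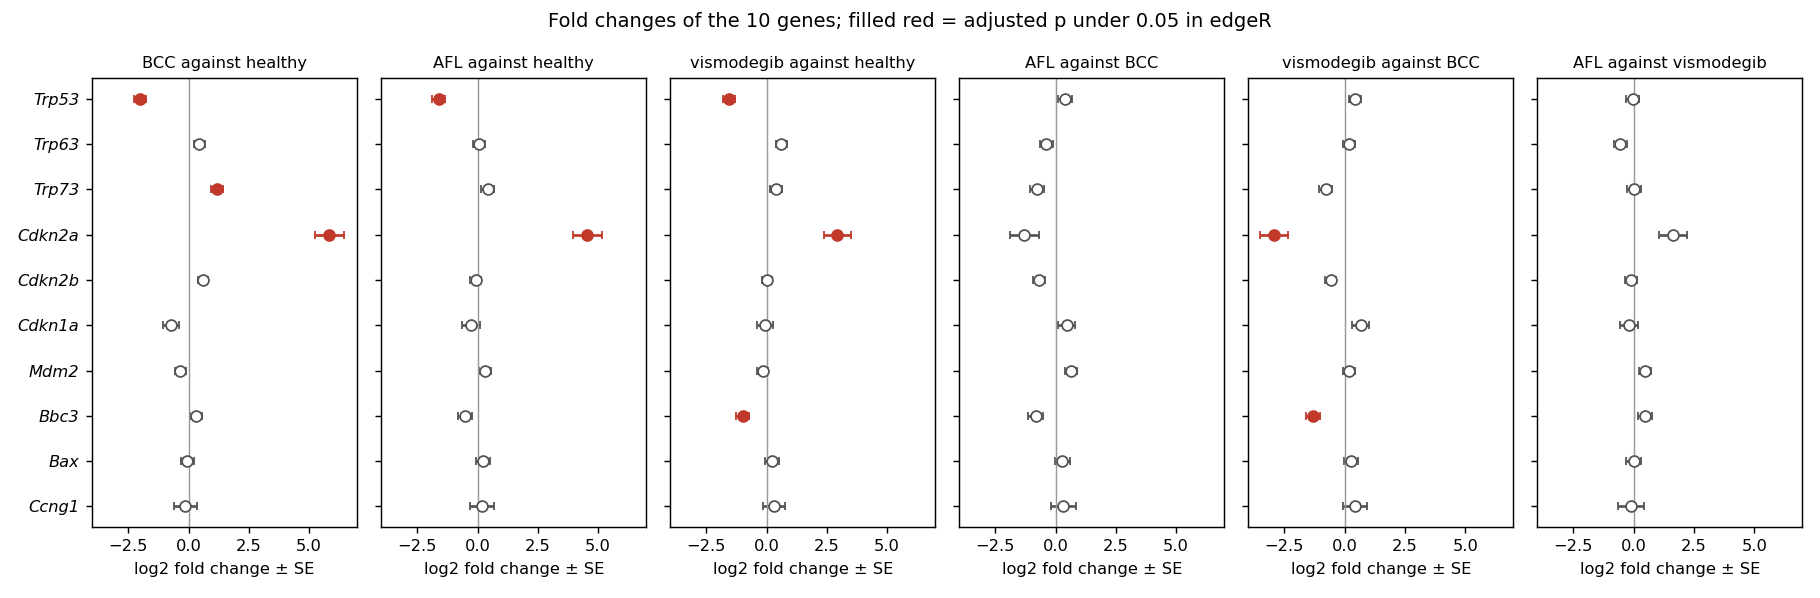
Log2 fold change of the 10 genes (x axis) in each of the 6 pairwise comparisons, with bars of 1 SE; filled red points passed the edgeR test at an adjusted p under 0.05. Cdkn2a lies at 5.84 in BCC against healthy skin and at -2.92 in vismodegib against BCC, and Trp53 lies at -2.01, -1.62 and -1.57 in the induced groups against healthy skin.

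Markers of several other cell types moved with the groups. Growing hair follicle markers (16 genes) summed to 1750 to 44000 CPM in healthy skin, 125 to 17300 in BCC, 38.8 to 657 after AFL and 81.5 to 22300 after vismodegib. BCC mouse 3 and vismodegib mouse 6 had hair scores (mean log2 CPM) of 8.73 and 8.82, within the healthy range of 4.71 to 9.81, and had 17.7 and 3.47 CPM of Cdkn2a. With the hair score as a covariate, Cdkn2a rose by 5.61 in BCC, 4.15 after AFL and 2.67 after vismodegib on the log2 scale, and Trp53 stood at -1.82, -1.28 and -1.36, all with an adjusted p under 0.05. AFL mice 2, 7 and 11 had hair scores of 0.6, -0.887 and 3.91, all below the healthy range. The covariate values for AFL against healthy skin therefore rest on extrapolation. The covariate moved Ccng1 from -0.13 to -1.17 in BCC (adjusted p = 0.0736), from 0.19 to -1.22 after AFL (adjusted p = 0.109) and from 0.30 to -0.91 after vismodegib (adjusted p = 0.124) against healthy skin. Cdkn1a went from -0.27 to 0.35 after AFL and from -0.07 to 0.38 after vismodegib, and was not called. Trp73 stood at 1.05 in BCC (adjusted p = 0.0294) and Bbc3 at -1.02 after vismodegib (adjusted p = 0.047). Neutrophil markers (6 genes, 1 of them at 0 in all healthy and all BCC mice) summed to 7.47 to 22 CPM in healthy skin, 24.8 to 134 in BCC, 93.5 to 2350 after AFL and 2420 to 49400 after vismodegib. The highest sums after treatment were those of AFL mouse 11 and vismodegib mouse 9. AFL mice 2 and 7 had 204 and 93.5 CPM, the latter within the BCC range. Vismodegib mice 1, 6 and 12 had 5400, 2420 and 4320 CPM. Basal keratinocyte markers (5 genes) summed to 8830 to 13100 CPM in healthy skin, 8170 to 17700 in BCC, 11400 to 22600 after AFL and 22600 to 43600 after vismodegib. Single basal markers did not all follow their sum. Of the 5, 1 was higher and 4 were lower after AFL than in healthy skin. After vismodegib 3 were higher and 2 lower than in healthy skin, and 2 higher and 3 lower than in BCC. Krt14, 1 of the 5, rose after both treatments against healthy skin. Macrophage markers (6 genes) summed to 175 to 467, 127 to 238, 1260 to 1970 and 265 to 646 CPM in healthy, BCC, AFL and vismodegib skin. Suprabasal keratinocyte markers (5 genes) summed to 2110 to 6240 CPM in healthy skin, 4020 to 7700 in BCC, 3630 to 17000 after AFL and 4680 to 23600 after vismodegib. After AFL, fibroblast markers (6 genes) summed to 15900 to 16100 CPM, endothelial markers (5 genes) to 206 to 442 and erythroid markers (2 genes) to 425 to 1240, against 2840 to 8830, 88.1 to 195 and 112 to 327 in healthy skin and 4860 to 15300, 85.9 to 146 and 62.8 to 168 in BCC. After vismodegib these sums were 2810 to 9090, 99.1 to 225 and 43.3 to 132 CPM. T cell markers (5 genes) overlapped between groups, at 24.3 to 54.2, 16.9 to 44, 18 to 32.4 and 11.5 to 54 CPM in healthy, BCC, AFL and vismodegib skin. In the same order, skeletal muscle markers (5 genes) summed to 3370 to 18800, 1340 to 4110, 588 to 8570 and 1620 to 6410 CPM. Adipocyte markers (4 genes) summed to 121 to 1350, 93.6 to 367, 225 to 586 and 130 to 454, and melanocyte markers (4 genes) to 67.1 to 1230, 7.37 to 877, 9.23 to 14 and 9.05 to 689. Growing hair was entered only as a covariate, and the part of the other cell types in the differences above was not tested.

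Another 32 p53 target genes, a list chosen with earlier results known, were followed in the same way. In BCC against healthy skin 0 of 32 passed the edgeR test, beside 2.82% of all genes, with a median log2 difference of -0.02. There 4 of the 32 had an unadjusted p under 0.05, beside 14.2% of all genes, and DESeq2 called 0, beside 5.41%. After AFL, 3 of 32 rose and none fell against healthy skin, beside 7.95% of all genes higher and 1.29% lower, with a median of -0.00. These were Apaf1, the core of the apoptosome (1.33, SE 0.22, adjusted p = 0.000682), Pmaip1, the pro-apoptotic protein NOXA (1.45, SE 0.28, adjusted p = 0.00246), and Gdf15, a stress-induced cytokine (2.33, SE 0.49, adjusted p = 0.00504), which was at only 0.523 CPM after AFL and 0.101 in healthy skin. The same 3 rose against BCC, by 1.16, 1.39 and 2.43, beside 6.10% of all genes. Pmaip1 lost that call without AFL mouse 11 (1.09, adjusted p = 0.0798), and Gdf15 with days since induction as a covariate (2.12, adjusted p = 0.156).

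After vismodegib 1 of these 32 rose and 2 fell against healthy skin, beside 7.57% and 4.07% of all genes, with a median of 0.05. Ephx1, an epoxide hydrolase gene, fell from 146 to 53.9 CPM (log2 difference -1.44, SE 0.28, edgeR adjusted p = 0.00392) and also fell against BCC (-1.26, SE 0.29, adjusted p = 0.00845), and kept both calls under every alternative tried. Pmaip1 (1.00) and Sesn1, a stress-response gene (-0.54), each lost their call in 7 of 18 alternatives, both of them without healthy mouse 13 (0.97 and -0.52), 15 (0.93 and -0.52), 16 (0.93 and -0.57) or vismodegib mouse 9 (0.93 and -0.51), Pmaip1 also without healthy mouse 14 (0.99) and Sesn1 without vismodegib mouse 1 (-0.46). Against BCC, beside 8.03% of all genes higher and 9.00% lower, 2 rose, Pmaip1 (0.94) and the nuclease gene Aen (0.93), and 4 fell: Ephx1, the DNA repair genes Ddb2 (-0.95) and Xpc (-0.66), and Trp53inp1 (-1.28), a p53 cofactor gene. Xpc and Trp53inp1 were named after their values were seen, and the calls of Pmaip1, Aen and Ddb2 were lost in 7, 8 and 7 of 19 alternatives, single mice left out among them. Between AFL and vismodegib, Apaf1 (1.22), Gdf15 (2.60) and Sesn1 (0.79) were higher after AFL, and Psrc1 (-1.38) and Phlda3 (-0.98), the latter named after its values were seen, were lower. These were 3 and 2 of the 32, beside 6.69% of all genes higher and 2.46% lower. Psrc1 lost the call without AFL mouse 2 (-1.42), 7 (-1.23) or 11 (-1.43) or vismodegib mouse 9 (-1.15). With days as a covariate both Psrc1 (-1.23) and Gdf15 (2.41) lost it. Sesn1 lost it in the induced mice alone, with days as a covariate (0.84) and without it (0.76). The median was 0.05 for AFL against BCC, 0.05 for vismodegib against BCC and 0.09 for AFL against vismodegib. The median of all genes was -0.00 in BCC, 0.01 after AFL and 0.02 after vismodegib against healthy skin, -0.04 and 0.05 for AFL and vismodegib against BCC, and -0.06 for AFL against vismodegib.

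**Figure D4:**
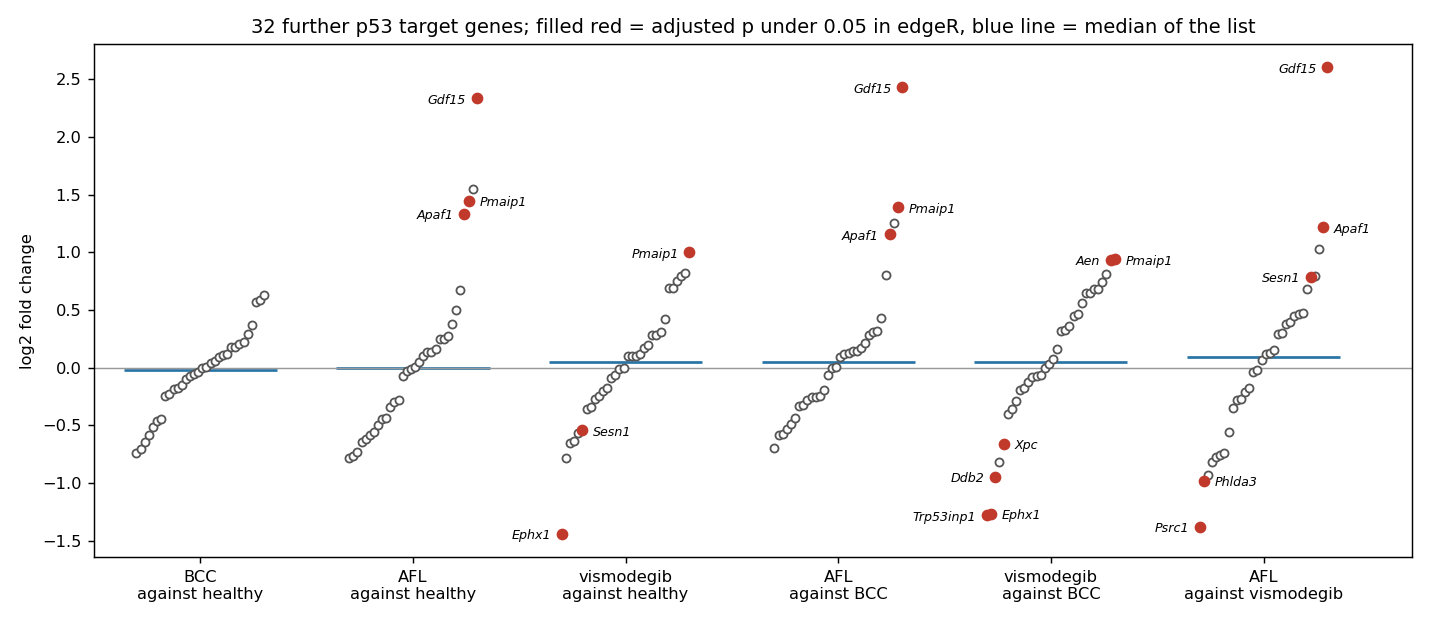
Log2 fold change of the 32 further p53 targets in the 6 pairwise comparisons, sorted within each, with a line at the median. Filled points passed the edgeR test; no gene is filled in BCC against healthy skin, and Apaf1, Pmaip1 and Gdf15 are filled in AFL against healthy skin and against BCC.

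Of 24 regulators of p53, 0 passed the edgeR test in BCC against healthy skin (median 0.12), beside 2.82% of all genes. None had an unadjusted p under 0.05, beside 14.2% of all genes, and DESeq2 called 0, beside 5.41%. After vismodegib 1 rose against healthy skin, beside 7.57% of all genes higher: Npm1, which encodes nucleophosmin, a binding partner of p19Arf (1.80, SE 0.53, adjusted p = 0.0387). This call was lost in 9 of 18 alternatives, among them leaving out any 1 healthy mouse or vismodegib mouse 9. Of 12 genes for regulators and a neighbour of the Cdkn2a locus, 0 passed in BCC against healthy skin by edgeR or DESeq2 (median -0.02). Beside these stood 2.82% of all genes by edgeR and 5.41% by DESeq2. None of the 12 had an unadjusted p under 0.05, beside 14.2% of all genes. After vismodegib 1 rose and 1 fell against BCC, beside 8.03% of all genes higher and 9.00% lower. Against healthy skin 1 rose and 1 fell too, beside 7.57% and 4.07%. After vismodegib Id1, an inhibitor of helix-loop-helix factors, rose against BCC from 62.1 to 152 CPM (1.29, SE 0.30, adjusted p = 0.00919) and kept its call in all 19 alternatives. It also rose against healthy skin (1.02, adjusted p = 0.0272), a call lost in 7 of 18 alternatives, among them leaving out healthy mouse 10 (0.97), 14 (1.01), 15 (0.98) or 16 (0.94) or vismodegib mouse 9 (0.67). The Polycomb gene Cbx7 fell against BCC (-1.16, adjusted p = 0.0412) and against healthy skin (-1.29, adjusted p = 0.0292). Without vismodegib mouse 9 these were -0.98 and -1.13, and neither passed. The first call also ended without BCC mouse 5 (-1.11) or 8 (-0.98) or vismodegib mouse 6 (-1.08) or 12 (-1.26), and the second without healthy mouse 15 (-1.13) or 16 (-1.21). After AFL, Ets1 rose (1.04) and Cbx8 fell (-0.99) against healthy skin, calls lost in 5 and 4 of 17 alternatives. Cbx8 also fell against BCC (-0.97, lost in 11 of 18). Single mice left out were among those settings. Of all genes, 7.95% were higher and 1.29% lower after AFL against healthy skin, and 1.65% were lower against BCC. Id1 was lower after AFL than after vismodegib (-1.59, adjusted p = 0.00702), beside 2.46% of all genes lower. That call was lost without AFL mouse 2 (-1.37, adjusted p = 0.0502) and with days since induction as a covariate (-1.46, adjusted p = 0.0775).

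The inhibitors and cyclins around the retinoblastoma protein, 19 genes, showed 0 changes by edgeR in BCC against healthy skin, beside 2.82% of all genes, with a median of -0.27. Of the 19, 3 had an unadjusted p under 0.05, beside 14.2% of all genes, and DESeq2 called 1, beside 5.41%. The cyclin D1 gene Ccnd1 fell against BCC after AFL (-1.18, SE 0.32, edgeR adjusted p = 0.0347) and after vismodegib (-0.94, SE 0.29, adjusted p = 0.0384), from 261 CPM to 115 and 136. These calls were lost in 7 of 18 and 6 of 19 alternatives, with values of -1.35 to -0.99 and -1.25 to -0.82. Cdk6 rose after AFL against healthy skin (0.79, lost in 7 of 17 alternatives), and E2f4 rose after vismodegib against BCC (0.78, lost in 10 of 19). Cdkn1c, the p57 gene, fell after vismodegib against healthy skin (-1.21, lost in 7 of 18). It was higher after AFL than after vismodegib (1.63, adjusted p = 0.0121). That call was lost without AFL mouse 7 (1.32, adjusted p = 0.0599) and in the induced mice alone, with days since induction as a covariate (1.52, adjusted p = 0.137) and without it (1.59, adjusted p = 0.0549). Leaving out single mice was among the settings that ended the calls of Ccnd1, Cdk6, E2f4 and, after vismodegib, Cdkn1c. Of 14 proliferation genes 0 changed in any comparison by edgeR or DESeq2, beside 2.82% to 17.0% of all genes in edgeR. At an unadjusted p under 0.05 there were 6 after vismodegib against healthy skin, 6 against BCC and 0 in the other comparisons. The share of all genes at that threshold was not counted for vismodegib against healthy skin or BCC. These counts of 6 therefore cannot be set against it. The medians of the 14 genes were -0.04 in BCC, 0.34 after AFL and 0.74 after vismodegib against healthy skin, 0.32 and 0.83 for AFL and vismodegib against BCC, and -0.49 for AFL against vismodegib. Of the 14, 3 were higher in BCC, 10 after AFL and 13 after vismodegib than in healthy skin. Against BCC 10 were higher after AFL and 14 after vismodegib. All 14 were lower after AFL than after vismodegib.

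Bbc3 and Bax belong to the BCL2 family, of which 14 further genes were tested. By edgeR 0 changed in BCC against healthy skin (median 0.22), beside 2.82% of all genes. Of the 14, 3 had an unadjusted p under 0.05, beside 14.2% of all genes, and DESeq2 called 1, beside 5.41%. Bmf, a pro-apoptotic BH3-only gene like Bbc3, fell after vismodegib from 21.6 CPM in BCC to 8.32 (-1.37, SE 0.23, edgeR adjusted p = 0.00154), was also lower than in healthy skin (-1.16, SE 0.22, adjusted p = 0.00371), and kept both calls in every alternative tried. Bcl2l11, which encodes the BH3-only protein BIM, rose after AFL against healthy skin (1.30, SE 0.21, adjusted p = 0.00073) and against vismodegib (1.65, SE 0.23, adjusted p = 0.00046), again in every alternative. It rose against BCC too (1.00, adjusted p = 0.0113), a call lost without BCC mouse 8 (0.95) or AFL mouse 11 (0.82). The same call was lost with library size alone (0.86), in the induced mice alone (0.94) and with days since induction as a covariate (1.19, adjusted p = 0.0749). After vismodegib against BCC, 3 fell, beside 9.00% of all genes lower. They were Bmf, the survival gene Bcl2 (-1.25, adjusted p = 0.0135) and Bcl2l11 (-0.65, lost in 13 of 19 alternatives). Bcl2 lost its call with days since induction as a covariate (-1.14, adjusted p = 0.0727). Bmf was higher after AFL than after vismodegib (1.32, adjusted p = 0.00332). Bok rose after vismodegib against healthy skin (0.83, lost in 10 of 18 alternatives), and the survival gene Mcl1 rose after AFL against BCC (0.66, lost in 12 of 18). Leaving out single mice was among the settings that ended the calls of Bok, Mcl1 and, against BCC, Bcl2l11 after vismodegib. The remaining calls, 3 after AFL and 2 after vismodegib against healthy skin, were copies of Bcl2a1, whose near-identical sequences make the split of reads uncertain. Against healthy skin 4 of the 14 rose after AFL, beside 7.95% of all genes. After vismodegib 3 rose and 1 fell there, beside 7.57% and 4.07%.

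Of 18 epidermal genes listed as p63 targets, 0 changed by edgeR in BCC against healthy skin (median 0.10), beside 2.82% of all genes. An unadjusted p under 0.05 was found for 3, beside 14.2% of all genes, and DESeq2 called 2, beside 5.41%. The basal keratin gene Krt14 rose after vismodegib against healthy skin (2.43, SE 0.37, edgeR adjusted p = 0.00074) and BCC (2.10, SE 0.40, adjusted p = 0.00286), as did the integrin gene Itga6 against healthy skin (1.37, SE 0.24, adjusted p = 0.00186). After AFL they stood at 1.63 and 1.06 against healthy skin, calls lost without AFL mouse 11 (1.10 and 0.76). Krt14 also lost its call with the replicate number as a block (1.39), and Itga6 with the hair score as a covariate (0.79). Dlx3 fell after AFL against healthy skin (-4.03, lost in 8 of 17 alternatives), but stood at -0.84 with the hair score as a covariate (adjusted p = 0.591). Fgfr2, a fibroblast growth factor receptor gene, fell against BCC after vismodegib (-1.11, SE 0.21, adjusted p = 0.0028) and after AFL (-1.03, adjusted p = 0.0101). The call after AFL was lost without AFL mouse 11 (-0.85, adjusted p = 0.0687) and with days since induction as a covariate (-1.04, adjusted p = 0.156). Jag2 fell after AFL against BCC (-1.22, lost in 9 of 18 alternatives). Ovol1 and Sfn rose after vismodegib against BCC (1.59 and 1.72, lost in 3 and 4 of 19 alternatives) and were lower after AFL than after vismodegib (-1.83 and -1.89, lost in 3 and 5 of 18). Single mice left out were among those settings for Dlx3, Jag2, Ovol1 and Sfn. Suprabasal keratinocyte markers summed to 4020 to 7700 CPM in BCC and 4680 to 23600 CPM after vismodegib, and their part in these differences was not tested. The medians were -0.46 after AFL and 0.19 after vismodegib against healthy skin, -0.45 and -0.02 against BCC, and -0.79 for AFL against vismodegib.

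Cdkn2a is widely used as a marker of senescence, and 12 other genes used in that way were examined. In BCC against healthy skin 0 of 12 passed the edgeR test, beside 2.82% of all genes. None had an unadjusted p under 0.05, beside 14.2% of all genes, and DESeq2 called 0, beside 5.41%. Of the 12, 9 were higher, and the median was 0.76. After AFL 9 rose against healthy skin (median 3.28, beside 7.95% of all genes) and 8 against BCC (median 2.70, beside 6.10%). After vismodegib 7 rose and 1, Igfbp5 (-1.58, named after its values were seen), fell against healthy skin (median 2.97, beside 7.57% of all genes higher and 4.07% lower), and 5 rose against BCC (median 1.79, beside 8.03%). Cxcl1, a neutrophil-attracting chemokine gene, rose after vismodegib by 5.20 against healthy skin (SE 0.82, adjusted p = 0.000886) and 4.23 against BCC (SE 0.85, adjusted p = 0.0042). The interleukin genes Il6 and Il1a rose after vismodegib by 4.89 and 3.63 against healthy skin and by 4.10 and 2.66 against BCC. The matrix protease gene Mmp3 rose by 3.99 and 2.89. Without vismodegib mouse 9 these were 2.83 and 1.77, and the latter no longer passed (adjusted p = 0.0555); Il6 then stood at 3.93 and 3.15. After AFL the interleukin gene Il1b rose by 6.29 against healthy skin and 5.21 against BCC, and the chemokine genes Cxcl2 by 10.36 and 7.48 and Cxcl1 by 4.97 and 4.00. Without AFL mouse 11 these were 4.17 and 3.09 for Il1b, 7.24 and 4.36 for Cxcl2, and 2.46 and 1.49 for Cxcl1, and the last no longer passed (adjusted p = 0.263), nor did it with the replicate number as a block (3.06, adjusted p = 0.0517). The lysosomal enzyme gene Glb1 (1.21) and Cxcl2 (5.48) were higher after AFL than after vismodegib. Cxcl2 stood at 2.42 there without AFL mouse 11 (adjusted p = 0.212), and lost the call also without vismodegib mouse 1, 6 or 12 (5.21, 5.16 and 5.19) and in the induced mice alone (5.44, adjusted p = 0.0796). The neutrophil and macrophage marker levels given above moved with these genes, and their part in the result was not tested.

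Genes whose pattern over the 16 mice was most like each of the 10, by Pearson correlation of log2 CPM among 12119 genes, are given as a description, since the points share group, library and hair content. The second value in each pair below is the correlation after the group means are removed. For Trp53 they were Pkp2 (0.836 and 0.278), Pla2g2d (0.825 and 0.112) and Ttc7b (0.821 and 0.592). For Cdkn2a they were Moxd1 (0.943 and 0.572), Kif5c (0.914 and 0.728) and Foxi3 (0.909 and 0.302). Within groups the likeness to Trp53 and Cdkn2a was lower. For Trp73 they were Hk2 (0.926 and 0.821), Kif1a (0.92 and 0.82) and Lgr6 (0.91 and 0.824), and for Trp63 Seh1l (0.961 and 0.944), Hace1 (0.931 and 0.941) and Lemd3 (0.926 and 0.946). Cdkn2b was nearest to Krtcap3 (0.844 and 0.647), H1f0 (0.814 and 0.601) and Smyd3 (0.724 and 0.33). Cdkn1a was nearest to Atp6v0d1 (0.924 and 0.898), Map2k3 (0.923 and 0.906) and Nkiras2 (0.913 and 0.91). The nearest gene was Pitpnc1 for Mdm2 (0.928 and 0.895), Fndc10 for Bbc3 (0.938 and 0.792), Mvb12a for Bax (0.95 and 0.974) and Ugp2 for Ccng1 (0.95 and 0.956).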

How the data were processed

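RNA was measured in 19 poly-A libraries of mouse skin from 16 mice, in 4 groups of 3 to 5 mice. Per the submitters' processing notes, the authors used Bowtie2 and RSEM against GRCm39 and deposited expected counts per gene; for versions, annotation and strand setting nothing is given in the sources used here, and antisense reads cannot be told apart. The deposited expected counts (3.42% not whole) were rounded, and paired libraries of a mouse were summed. The labels give mouse 16 ages of 128 and 135 days. Genes were filtered with filterByExpr and fitted together in edgeR 4.0.16 (R 4.3.3; TMM scaling, robust quasi-likelihood F test, group as the only term), with Benjamini-Hochberg adjustment over 15760 genes in each of 7 comparisons. SE is the log2 fold change divided by the root of F. The fit was checked on simulated data for BCC against healthy skin, with 100 genes changed 2-fold and 100 changed 4-fold. It called 14 of the 2-fold genes and 89 of the 4-fold genes, with 3 false calls. Of the 2-fold genes, 2 had an estimate of the wrong sign. A gene that was not called may therefore still have changed 2-fold. Members and lists were chosen with earlier results of these data known. Every member was reported. The rule for the lists took up to 4 called genes per list and comparison, by p; not every such gene is named, genes named beyond it are marked, and 1 listed gene is not reported here. Alternatives were DESeq2 1.42.0, other scalings and filters, other replicate units, a replicate block, hair and day covariates, and leaving out each mouse. 3 listed markers were not analysed here. Promoter sequences are from RefSeq.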

Additional observations from a re-analysis of the deposited data

Results flagged for a closer look

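In the 30 sets of values examined (each gene in the groups of 4 or 5 mice), 2 single mice lay far from the others of their group, by Dixon's test; chance flags about 1 in 20 such sets. Trp73 in healthy mouse 16 was at 31.6 CPM, where the other healthy mice were at 17.8 to 20.5, and its paired libraries had 37.1 and 26.2 CPM. Mdm2 in vismodegib mouse 9, the library with the lowest TMM factor, was at 23.6 CPM, where the other vismodegib mice were at 47.4 to 50.3.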

How the results depend on the processing

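Of 70 results for single genes (10 genes in 7 comparisons), 12 passed the test, 10 of these under every alternative tried, and 49 passed under none. No called result reversed. Cdkn2a ranged from 5.53 to 6.08 in BCC against healthy skin and from -3.35 to -2.43 in vismodegib against BCC (log2). Trp53 ranged from -2.11 to -1.82 in BCC against healthy skin. The count of the 10 genes that changed between AFL and BCC was 0, but 2 by DESeq2 (Cdkn2b and Bbc3) and 3 with all 19 libraries as replicates (Trp73 as well). It was 0 to 1 leaving out each mouse. Over all genes that comparison had 1221 changed, 2001 by DESeq2 and 2068 with all 19 libraries. Between vismodegib and BCC 2 of the 10 changed, but 4 by DESeq2 and 4 with library size alone (Trp73 and Cdkn2b were added). Over all genes 2684 changed there, 3731 by DESeq2 and 2604 with library size alone. Between AFL and vismodegib 0 of the 10 changed. Cdkn2a alone was added with library size alone, with all 19 libraries and with days since induction as a covariate, and 0 to 1 changed leaving out each mouse. Over all genes 1442 changed there, and 1560, 2612 and 1035 in those 3 settings. The cause of these shifts was not tested. Library size alone moved the median of all genes by -0.354 in vismodegib against BCC and by -0.268 in vismodegib against healthy skin. In BCC against healthy skin 445 genes of the whole table changed, but 936 by DESeq2.

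Replicate numbers did not pair the mice: same-numbered mice had correlations of -0.427 to 0.654 (median -0.194 over 21 pairs), and 2 of 16 mice correlated best with their own number. With the replicate number as a block, Trp73 passed in vismodegib against BCC (-0.838, adjusted p = 0.0217) and in the mean of the induced groups against healthy skin (0.836, adjusted p = 0.0225). The 3 AFL mice and the low healthy Cdkn2a counts limit the precision.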
